A study of Mus musculus with 2 samples.

Results

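The genes described here are 10 that belong to the Nrf2 pathway and to the glutathione and thioredoxin systems: the regulators Nfe2l2 and Keap1, the stress-response enzymes Nqo1 and Hmox1, the glutathione enzymes Gclc, Gclm, Gss and Gsr, and the thiol enzymes Txnrd1 and Srxn1. They were selected by their symbols in the platform annotation, which gave 21 probe sets of 45101. They are 10 of 18193 genes with a probe set of 1 symbol. The set was put together with earlier results from the same 2 arrays in view, so its values are a description and no test is attached to them. Messenger RNA was measured on Affymetrix arrays in mouse embryonic fibroblasts (MEFs), connective tissue cells taken from embryos and labelled as a cell line here, grown in medium with fetal calf serum. One array carried RNA from MEFs with both normal copies of Fut8 (Fut8+/+) and the other RNA from MEFs homozygous for its loss (Fut8-/-); Fut8 makes the enzyme that adds core fucose to N-glycans. The labels give no treatment, no embryo age and no strain, and the design text gives an n of 3 per genotype. Each genotype has 1 array here, and whether its RNA came from 1 culture or a pool is not stated. No difference below has a replicate check, and genotype cannot be told apart from any other difference between the cultures.

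Nrf2, the product of Nfe2l2, is a transcription factor that is held at a low level by Keap1, an adaptor that delivers it to a Cul3 ubiquitin ligase for degradation. Oxidants and electrophiles modify cysteines of Keap1, Nrf2 then accumulates, pairs with a small Maf protein and binds antioxidant response elements in the promoters and enhancers of its targets. Among these targets are enzymes that make glutathione, the main low-molecular-weight thiol of the cell, and enzymes that reduce quinones, thioredoxin and oxidised peroxiredoxins. Since this control acts largely on the stability of the Nrf2 protein, the messenger RNA level of Nfe2l2 does not measure its activity.

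The glutathione synthesis genes, Nfe2l2 and Nqo1 had higher signals on the Fut8-/- array, whereas Keap1 and the reductase genes Gsr and Txnrd1 lay close to equal on both arrays. All 10 genes were measured, meaning that the brighter array reached a signal of 39.1, the 60th percentile. After centring, 4 of the 10 (Nqo1, Gclc, Gclm and Nfe2l2) were at least 2-fold higher on the Fut8-/- array, 0 were lower by that much and 6 fell short of 2-fold. Over all 10164 measured genes 6.12% passed 2-fold on the higher side and 8.45% on the lower side. The median log2 ratio of the 10 genes was 0.77, or 1.71-fold, against 0.0008 over all measured genes. The 4 genes lay only just past 2-fold, between 2.08-fold and 2.52-fold. For scale, log2 ratios of probe sets varied about the mean of their gene with an SD of 0.40 across 5389 genes of these arrays. This is spread between probe sets and not the error between cultures.

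Ratios are Fut8-/- over Fut8+/+ and were centred on the median ratio of the brighter probe sets. That median was -0.22 on the log2 scale, so centring multiplied the Fut8-/- signals by 1.16. Without it Nqo1 alone of the 10 genes was at least 2-fold higher, beside 4.08% of all measured genes. With a limit of 1.5-fold in place of 2-fold, 7 of the 10 were higher, beside 14.4% of all measured genes, as Srxn1, Hmox1 and Gss joined the first 4. All 10 log2 ratios were above 0 after centring, beside 50.1% of all measured genes, and 8 of 10 without it. Signals are printed below as deposited, and folds are centred.

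**Figure D1:**
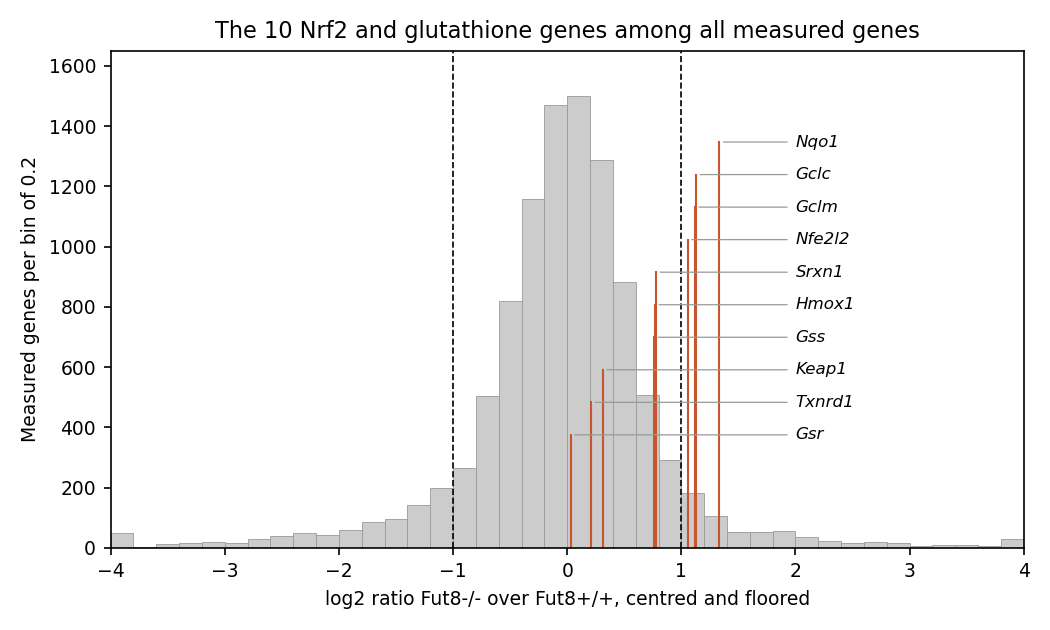
Grey bars count the 10164 measured genes by log2 ratio of Fut8-/- over Fut8+/+, with ratios beyond 4 in either direction held in the end bins; red lines mark the 10 Nrf2 and glutathione genes (their height has no meaning) and dashed lines mark 2-fold. Nqo1, Gclc, Gclm and Nfe2l2 lie past the 2-fold line on the higher side, between 1.05 and 1.33, and Gsr lies near the centre at 0.03.

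Promoter sequences from RefSeq (assembly GRCm38.p6) were searched because several of these genes are textbook carriers of the antioxidant response element. Each window runs from 250 bases before a transcription start to 50 bases after it, and the table held windows for 7 of the 10 genes. The core TGACNNNGC was searched on both strands, read on the other strand as GCNNNGTCA. It was found in 4 of the 9 windows, 1 each for Nfe2l2, Gclm, Srxn1 and Txnrd1, and in 12.4% of all 32851 windows. A match is a string of letters and not a shown binding site, and elements farther from the start are outside these windows. Only this core was searched, so an element of another spelling inside a window would be missed. Of the 4 genes past 2-fold, windows were at hand for Nfe2l2 (chr2:75704614-75704913, minus strand), Gclm (chr3:122245307-122245606, plus strand) and Nqo1 (chr8:107403156-107403455, minus strand), printed here so that the presence or absence of the core can be seen; capitals mark the match.
Nfe2l2: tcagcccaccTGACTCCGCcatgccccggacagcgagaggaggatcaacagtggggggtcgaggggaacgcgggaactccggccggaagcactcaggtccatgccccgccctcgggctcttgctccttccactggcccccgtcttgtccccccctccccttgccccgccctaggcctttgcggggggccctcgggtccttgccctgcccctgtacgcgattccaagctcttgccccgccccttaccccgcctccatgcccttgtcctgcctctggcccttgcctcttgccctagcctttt
Gclm: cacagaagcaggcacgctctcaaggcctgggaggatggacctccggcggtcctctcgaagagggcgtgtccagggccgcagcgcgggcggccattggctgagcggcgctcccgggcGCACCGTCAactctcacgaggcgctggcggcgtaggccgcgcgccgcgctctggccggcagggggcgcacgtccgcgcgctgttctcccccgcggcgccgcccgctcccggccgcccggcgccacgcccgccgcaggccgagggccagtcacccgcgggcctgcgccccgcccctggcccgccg
Nqo1: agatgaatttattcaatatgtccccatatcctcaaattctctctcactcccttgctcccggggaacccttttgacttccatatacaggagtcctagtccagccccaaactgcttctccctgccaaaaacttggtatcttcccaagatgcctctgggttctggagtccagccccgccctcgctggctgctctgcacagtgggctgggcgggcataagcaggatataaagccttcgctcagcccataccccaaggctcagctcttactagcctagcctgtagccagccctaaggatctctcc

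The match in the Nfe2l2 window read TGACTCCGC in the direction of the gene and began at base -240 from the start site. In the Gclm window it read GCACCGTCA, the element on the other strand, beginning at base -134. The Nqo1 window, which belongs to the gene with the largest ratio of the 10, held no match in these letters. In Srxn1 the only match to this core, GCTAGGTCA, began at base 29, after the start site. In 1 of the 3 Txnrd1 windows GCTTTGTCA began at base -92. A match was thus present both in genes past 2-fold and in Txnrd1, which lay near equal signal.

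Of the regulators, Nfe2l2 at its brighter probe set (1416543_at; chromosome 2) read 373 for Fut8+/+ against 665 for Fut8-/-, 2.08-fold higher after centring (log2 ratio 1.05). Its other probe set (1457117_at) was below the floor on both arrays, at 7.53 and 0.742, and gives no ratio; the floor is a signal of 12.3, the 40th percentile. The Nfe2l2 value therefore rests on a single probe set. Keap1, whose product holds Nrf2 down, had signals of 296 and 316 at its brighter probe set (log2 ratio 0.31; chromosome 9). At the dimmer Keap1 probe set the signals were 93.2 and 78.7, with a ratio of -0.03, so the gene differed little in either reading.

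Nqo1 makes the NAD(P)H quinone reductase that is a standard readout of Nrf2 activity. Its only probe set (1423627_at; chromosome 8) read 107 for Fut8+/+ against 231 for Fut8-/-, or 2.52-fold higher. This was the largest ratio of the 10 genes, and 368 of the 10164 measured genes had a higher one. Hmox1, the haem oxygenase that opens the haem ring and releases iron, answers to Nrf2 and to the haem-sensing repressor Bach1. It had signals of 310 and 454 at its only probe set (1448239_at; chromosome 8), 1.70-fold higher, with 968 measured genes above it.

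Glutathione is made from glutamate, cysteine and glycine by glutamate-cysteine ligase, whose catalytic subunit is encoded by Gclc and whose modifier subunit by Gclm, and then by glutathione synthetase (Gss). Gclc (chromosome 9) had signals of 266 and 500 at 1424296_at and of 225 and 402 at 1455959_s_at. Its ratios were 2.19-fold and 2.08-fold, so both Gclc probe sets lay past 2-fold. Gclm (chromosome 3) had signals of 1230 and 2292 at 1418627_at, a ratio of 2.17-fold. The dimmer Gclm probe set, 1439050_at, gave 186 and 240 (log2 ratio 0.59), higher on the same array but short of 2-fold. Gss (chromosome 2) had signals of 303 and 441 at 1448273_at, 1.69-fold higher, and of 186 and 254 at 1441931_x_at, 1.59-fold higher. All 6 readings of the 3 synthesis genes were thus higher on the Fut8-/- array, as were their deposited signals before any centring.

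**Figure D2:**
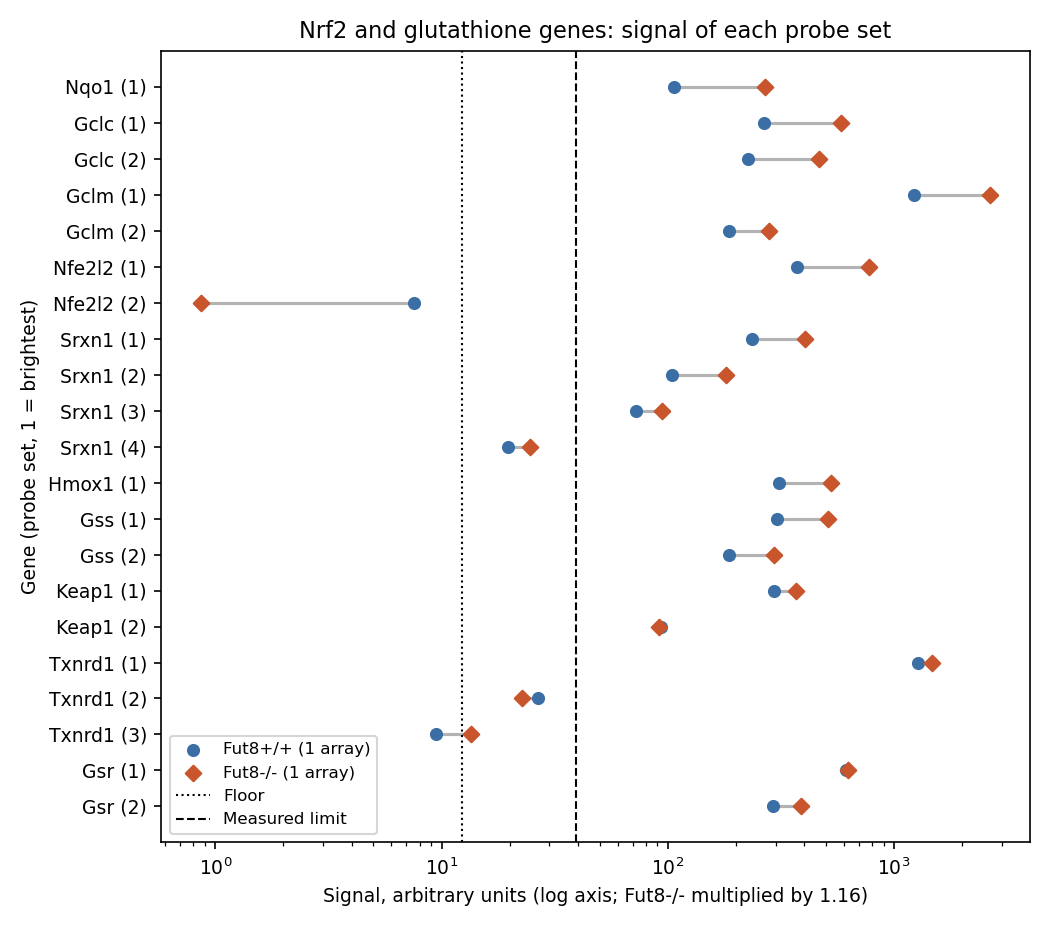
Each row is a probe set of the 10 genes (1 is the brightest of its gene), with the Fut8+/+ signal as a circle and the Fut8-/- signal, multiplied by 1.16, as a diamond on a log axis; dotted and dashed lines mark the floor of 12.3 and the measured limit of 39.1. Both probe sets of Gclc, Gclm and Gss have the diamond to the right of the circle, while the points of Txnrd1 and of Gsr at their brightest probe sets lie close together.

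The 2 reductases that recycle thiols, Gsr and Txnrd1, differed less than the synthesis genes, whereas Srxn1 was close to Gss. Gsr (chromosome 8), which reduces oxidised glutathione with NADPH, had signals of 614 and 538 at 1421817_at, a log2 ratio of 0.03. Its other probe set gave 293 and 334, a ratio of 0.41, so the deposited Gsr signals changed direction between probe sets. Txnrd1 (chromosome 10), the selenium-containing cytosolic thioredoxin reductase, had signals of 1276 and 1266 at 1421529_a_at, a log2 ratio of 0.21 that comes from the centring. The other Txnrd1 probe sets were dim: the first read 26.8 and 19.5, the second 9.41 and 11.6, and neither reached the measured limit. Srxn1 (chromosome 2), the sulfiredoxin that repairs over-oxidised peroxiredoxins, was read by 4 probe sets, the most of any of the 10 genes. Its brightest, 1426875_s_at, had signals of 236 and 347 (1.71-fold), and 1451680_at gave 105 and 156 (1.73-fold). The 2 dimmer Srxn1 probe sets had ratios of 1.31-fold (72.4 and 81.2) and 1.25-fold (19.7 and 21.2), so all 4 were higher on the Fut8-/- array by differing amounts. Of the 19 probe sets of these genes above the floor in both cultures, 17 had a log2 ratio above 0 and 5 reached 2-fold. The 2 below 0 were the dimmer reading of Keap1 and a dim one of Txnrd1. Probe sets of a gene read the same RNA, so these counts are not independent readings. The matching shares over all probe sets were not computed.

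The calls at 2-fold depended on the processing for 3 of the 4 genes. Nqo1 stayed past 2-fold under all 10 other settings tried, with log2 ratios from 1.11 to 1.38. The floor and the limit for measured genes could not change its ratio, nor could a median over its single probe set. For Nqo1 only the settings of centring or normalization were therefore a check. Gclc stayed past 2-fold under 9, where the floor and that limit could not change its ratio either. Without centring Gclc had a ratio of 0.91. Gclm and Nfe2l2 did not without centring (0.90 and 0.84) or with each chromosome centred on its own median (0.88 and 0.95). Gclm also fell short, at 0.85, as the median of its probe sets. A median over all probe sets counts the dark one of Nfe2l2 as a ratio of 0, so its value there is set by the floor; over probe sets above the floor, a setting added after the data were seen, Nfe2l2 stays at 1.05 and 3 of the 10 genes pass 2-fold, beside 5.59% of all measured genes. The chromosomes that carry the 10 genes had median log2 ratios of 0.10 (chromosome 2), 0.24 (3), -0.03 (8), 0.04 (9) and 0.11 (10) over their measured genes. The share of that chromosome-wide shift in the ratio of Gclm, on chromosome 3, was not tested beyond this centring.

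**Figure D3:**
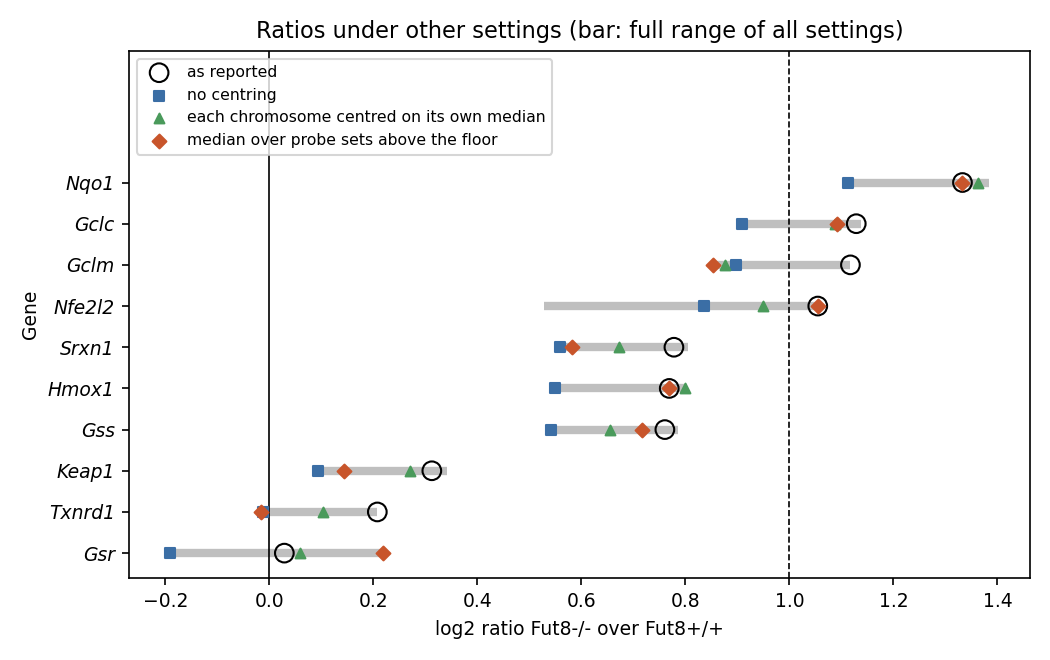
For each of the 10 genes the log2 ratio of Fut8-/- over Fut8+/+ is shown as reported (open circle), without centring (square), with each chromosome centred (triangle) and as the median over probe sets above the floor (diamond); the grey bar spans all settings, the low end for Nfe2l2 being the median that counts its dark probe set as 0, and the dashed line marks 2-fold. Nqo1 lies to the right of the dashed line throughout, Gclc, Gclm and Nfe2l2 lie on both sides of it, and Gsr and Txnrd1 straddle 0.

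The wider pathway was read through 8 lists of 109 genes, of which 95 had a probe set of their own and 76 were measured. Of these, 14 passed 2-fold on the higher side in Fut8-/-, 8 passed it on the lower side and 54 passed neither, with a median log2 ratio of 0.23; without centring the counts were 10 higher and 9 lower. As shares these are 18.4% higher and 10.5% lower, beside 6.12% and 8.45% of all measured genes, and 13.2% and 11.8% without centring, beside 4.08% and 11.8%. The lower share is thus near that of all measured genes, and the same background holds for each list below. Of the 14 higher genes 9 were in the detoxification list, and the cysteine and glutathione list held 3 of the 8 lower ones.

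The partners and regulators of Nrf2 showed little difference, with 0 of 13 measured genes higher and 1 lower (median 0.09). The lower gene was Maff, which encodes a small Maf partner, at 126 and 31.7 (3.41-fold lower). Bach2, a relative of the repressor Bach1, had a log2 ratio of -0.81 (-1.03 without centring), the ubiquitin ligase gene Rbx1 0.70, and Sqstm1, whose product p62 binds Keap1 and is itself an Nrf2 target, 0.68, although the probe sets of Sqstm1 differed in sign. Genes that supply NADPH, the electron donor of Nqo1, Gsr and Txnrd1, gave 0 higher and 1 lower of 7 (median 0.47). G6pdx, also on this list, had no probe set of its own and was not read. The pentose phosphate genes Tkt (4500 and 7061, log2 ratio 0.87) and Pgd (0.81) and the dehydrogenase gene Idh1 (0.52) lay on the higher side, as did Me1 (0.47). Taldo1 of the pentose phosphate pathway (-0.34) and the mitochondrial dehydrogenase gene Idh2 (-0.32) lay on the lower side. Both are on chromosome 7, whose measured genes had a median log2 ratio of -0.32. The part of that shift in their ratios was not tested. The mitochondrial folate gene Mthfd2 was 2.15-fold lower. With each chromosome centred on its own median, Pgd reached 1.02 and Mthfd2 fell short of 2-fold at -0.98.

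A pair of genes that supply cysteine, Cth and Slc7a11, had far lower signals on the Fut8-/- array, opposite in direction to the glutathione synthesis genes. Cth, the cystathionine gamma-lyase of cysteine synthesis, had signals of 1942 and 133, 12.6-fold lower. Slc7a11, the cystine importer and a known Nrf2 target, had 95.9 and 3.54, the latter below the floor, so that it was at least 7.77-fold lower (at least 2.45-fold with the floor at the 60th percentile). Slc3a2, the partner subunit of that importer, had 2399 and 1394, a log2 ratio of -0.56 that does not reach 2-fold, and Cbs, the other enzyme of cysteine synthesis on the list, was below the measured limit. Chac1, which breaks down glutathione, was 3.93-fold lower. Cth, Slc7a11 and Chac1 are also known targets of ATF4, the transcription factor of amino acid stress. Any part of ATF4 in these ratios was not tested. On the other side the glutaredoxin gene Glrx had 82.1 and 256, 3.63-fold higher (log2 ratio 1.86). Glrx is on chromosome 13, whose measured genes had a median log2 ratio of 0.56. With each chromosome centred on its own median its log2 ratio was 1.30. The list of 15 measured genes thus held 1 higher and 3 lower, with a median of -0.14.

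The thioredoxin and peroxiredoxin list gave 2 higher and 1 lower of 15 (median 0.16). Its genes Prdx1, Prdx5 and Prdx6 had no probe set of their own. The methionine sulfoxide reductase gene Msrb2 was 5.82-fold higher (17.5 and 87.4; 2.60-fold with the floor at the 60th percentile) while its relative Msrb3 had a log2 ratio of 0.50. Txnrd2, the mitochondrial counterpart of Txnrd1, was 2.06-fold higher (94.9 and 168), but its 4 probe sets above the floor differed in sign and its log2 ratio was 0.82 without centring. Sesn2, a stress-induced sestrin, was 2.18-fold lower. Of the genes that remove superoxide and peroxide, 0 of 3 passed 2-fold (median 0.56), with log2 ratios of 0.68 for Sod1, 0.56 for catalase (Cat) and 0.43 for Sod2; the probe sets of Sod1 differed in sign. In the haem and iron list 2 of 8 were higher and 0 lower (median 0.45), and Ftl1 had no probe set of its own. The iron exporter gene Slc40a1 had signals of 155 and 316 (2.38-fold). The transferrin receptor gene Tfrc was 2.32-fold higher at its brightest probe set, but its median over all probe sets was 0.0028. Fech (0.65) and Hmox2 (0.47) lay between.

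Detoxification genes differed more than the 10 genes themselves, with 9 of 13 measured at least 2-fold higher and 0 lower (7 and 0 without centring) and a median log2 ratio of 1.29. The microsomal glutathione transferase gene Mgst1 had signals of 21.0 and 821 (45.5-fold), the carbonyl reductase gene Cbr3 14.2 and 179 (14.7-fold) and the glutathione transferase gene Gstm1 227 and 1916 (9.84-fold). With the floor at the 60th percentile Mgst1, which has 1 probe set above the floor, was 24.4-fold higher and Cbr3 5.33-fold, since their Fut8+/+ signals lie close to the floor. The aldehyde oxidase gene Aox1 was dim, at 1.19 and 37.9, and at least 3.57-fold higher (at least 1.13-fold with the higher floor). Nqo2, the relative of Nqo1, sat just past the limit with 154 and 266. Gstm2, next in the same family as Gstm1, had 502 and 432 and a log2 ratio of 0.0012, so members of a family differed. Only 2 genes of NADPH oxidases, enzymes that make superoxide and peroxide, were measured, and both were lower: the p22phox subunit gene Cyba by at least 64.8-fold (800 and 10.2; at least 20.4-fold with the higher floor) and the catalytic subunit gene Nox4 by 4.10-fold (193 and 40.4). Nox4 is on chromosome 7, whose measured genes had a median log2 ratio of -0.32. With each chromosome centred on its own median the log2 ratio of Nox4 was -1.72, against -2.04 as reported.

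**Figure D4:**
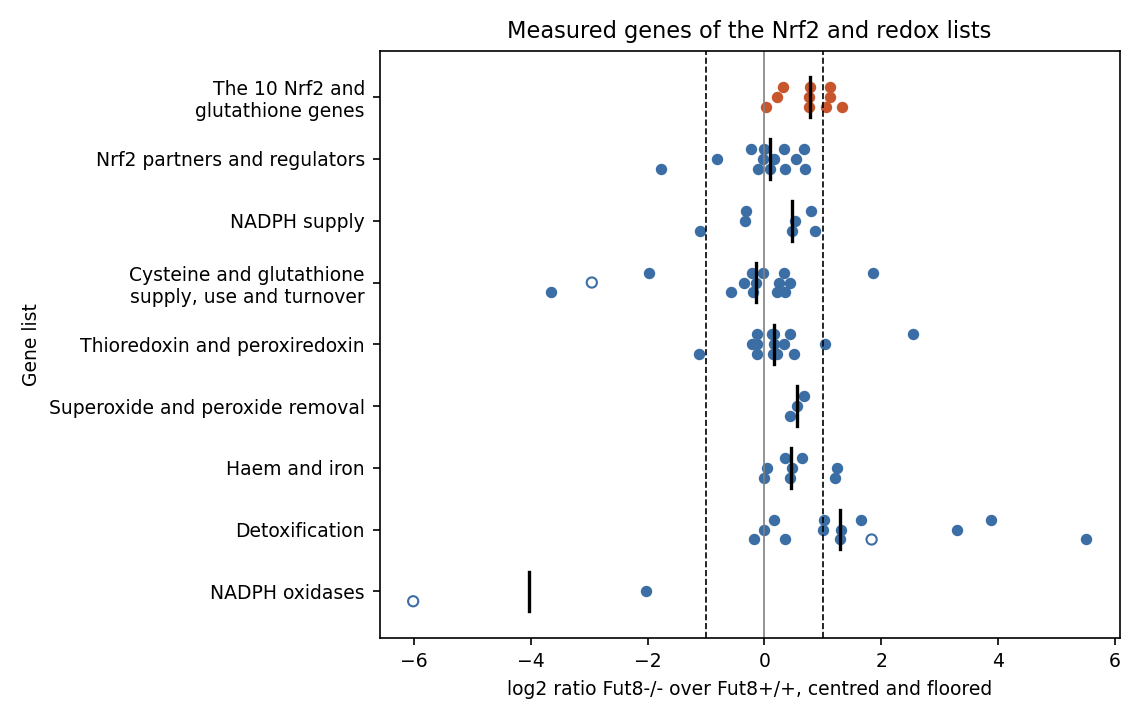
Each point is a measured gene, placed by its log2 ratio of Fut8-/- over Fut8+/+; open points are bounds because 1 array was at the floor, black bars are list medians and dashed lines mark 2-fold. The 10 genes have a median of 0.77, the detoxification list of 1.29 and the cysteine and glutathione list of -0.14.

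Checks on the arrays as a whole touch all of these values. Fut8 itself had signals of 190.9 and 11.7 (14.1-fold lower in Fut8-/-), which checks the genotype label only if the probe set reads the deleted part. Its Fut8-/- signal, once scaled, lies just above the floor of 12.3, so a higher floor would shrink this fold. The cultures differed in sex-linked transcripts, Xist being 37.2-fold lower and Eif2s3y at least 268-fold higher on the Fut8-/- array. The Fut8-/- signal of Xist, 15.2, is also close to the floor. Ratios of 3-prime to 5-prime signal were 0.812 and 0.732 for Gapdh and 1.20 and 1.25 for beta-actin. Of 12 fibroblast markers 9 were measured, with Thy1, Dcn and Lum below the limit on both arrays. Past 2-fold, 3 were lower, namely Fn1 (3.24-fold), Col1a1 (2.58-fold) and Pdgfra (2.26-fold), and 1 was higher, Pdgfrb (2.13-fold). The summed signal of all 12, measured or not, was 47735 in Fut8+/+ and 47133, scaled, in Fut8-/-. Bright genes such as Vim and Col1a2 make up much of this sum, so it does not show these differences. Of 7 epithelial markers 2 were measured, Krt19 at least 14.6-fold higher and Epcam 2.43-fold lower. Cdh1, Krt8, Krt18, Krt5 and Krt14 were below the limit. Over all 7, measured or not, the summed signals were 111 in Fut8+/+ and 276, scaled, in Fut8-/-. Of 7 macrophage and leukocyte markers 2 were measured, and 0 of 5 endothelial ones. All 7 macrophage and leukocyte markers together summed to 235 in Fut8+/+ and 178, scaled, in Fut8-/-. The part of sex, cell makeup or RNA quality in the ratios above was not tested.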

How the data were processed

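The authors' deposited values were intensity values on a linear scale for every probe set of each array, made with GCOS per the submitters' processing notes; the sources used here do not state its version, algorithm or scaling target. Their medians were 20.5 (Fut8+/+) and 16.9 (Fut8-/-), and means trimmed by 2% at each end were 189 and 164, so scale and centring are unknown beyond the values being linear. With Python 3.11.15, numpy 2.4.6 and pandas 2.3.3, log2 ratios were centred, floored at the 40th percentile of both arrays pooled, and counted where the brighter array reached the 60th. The probe set with the highest mean log2 signal stood for a gene. Probe sets had 1 symbol (34945), several (932, not used) or none (9160); 64 were controls. Identifiers of 34741 matched the RefSeq table of GRCm38.p6, changing 0 symbols.

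With 1 array per genotype no test was possible, and the number of arrays limits the precision. Named genes were the 10, Fut8, and up to 4 measured genes per list with the largest absolute ratio. Nqo2, Gstm2, Slc3a2, Me1, Taldo1, Idh2, the sex-linked genes and the named fibroblast markers were added after their values were seen. The genes and lists were chosen with earlier results of these data known. The steps were tested on simulated data, whose planted changes were larger than the ratios of the 10 genes. Recovery of changes near 2-fold was not checked in this way. Also tried were 9 other settings, a 1.5-fold limit and 1 setting added after the data were seen (the median over probe sets above the floor).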

Additional observations from a re-analysis of the deposited data

How the results depend on the processing

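The 4 of 10 genes past 2-fold in Fut8-/- were also counted after quantile normalization, after loess, with the floor at the 20th or 60th percentile, and with the limit for measured genes at the 75th percentile or removed. The count was 1 without centring (4.08% of all measured genes passing), 2 with each chromosome centred on its own median (5.21%), 2 with the median over all probe sets (4.56%), 3 with the median over probe sets above the floor (5.59%) and 7 with a 1.5-fold limit (14.4%). Without centring the ratios lack the shift of -0.22; in the median over all probe sets the dark probe set of Nfe2l2 counts as 0. The count of genes at least 2-fold lower was 0 under all 11 alternatives, and their median log2 ratio stayed between 0.55 and 0.80. Of the 8 lower genes in the wider lists, 5 were counted with the limit at the 75th percentile, where 64 of 76 genes were left. Of 17 named list genes past 2-fold, 12 stayed so under all 10 settings. Aox1, Mthfd2, Sesn2, Tfrc and Txnrd2 did not, and 0 changed sign. The limit for measured genes never alters a ratio, and the floor alters none that lies far above it. Such settings are therefore weak checks of bright genes. No paired analysis was possible because each genotype has 1 array. Leaving out a replicate was not possible either. Nqo1, with a signal of 107 or more on both arrays, lies well above the floor, whereas ratios of Aox1, Slc7a11, Cyba, Cbr3, Msrb2 and Mgst1 move by over 1.5 times with it.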
